A study of Arabidopsis thaliana with 6 samples.

Results

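In leaves of wild-type Arabidopsis thaliana, 1790 introns kept much of their sequence in polyadenylated RNA. They were selected on a measured value, the retention in Col-0, and are the introns where it averaged at least 20% over the 3 libraries of this wild type, among 91164 introns deep enough to be read in all 6 libraries. That is 1.96% of them, in 1542 of 14594 genes. Retention is the read depth of the intron as a percentage of the depth of the intron plus its neighbouring exons, and depth is the average number of reads over a base. An intron was read where that sum was at least 20 in every library, which 91164 of 105206 introns in the deposited table met. The exon value in the table lay close to the sum of both neighbouring exons, since its median ratio to the average depth of the gene ran from 2.24 to 2.32 over the libraries. A retention of 33.33% therefore stands for an intron as deep as the exons beside it, and 20% for an intron at 50% of their mean depth. Because Col-0 values chose these introns, their high retention is the rule and not a finding, and the comparison of genotypes is given as a description.

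The study compared Col-0 with the double mutant mac3a mac3b, whose alleles the labels do not name. Both MAC3 genes encode ubiquitin ligases of the MOS4-associated complex, an assembly that works with the spliceosome. Rosette leaves were taken at 40 days of age from plants that had not flowered, grown at 22 °C with 8 h of light and 16 h of dark after a cold treatment of the seed. Each genotype gave 3 libraries of polyadenylated RNA, made from DNase-treated RNA. Nothing says whether they came from separate plants or pools, so p-values measure only the spread between these libraries, which may be technical. The mean level of MAC3A was 19.6 RPKM in the wild type and 7.03 RPKM in the mutant, and that of MAC3B was 40.3 and 7.41 RPKM (reads per kilobase of gene, scaled to library size). Unique reads summed over 13069 genes ran from 80626787 to 108909613 per library. The leaf markers RBCS1A, RCA and LHCB1.3 were between 2236 and 21007 RPKM in all 6 libraries, while the root markers PYK10 and CASP1, the flower marker AP1 and the seed marker CRA1 did not exceed 0.5 RPKM. The flower gene AG was between 0.320 and 0.640 RPKM in the wild type and between 1.00 and 1.05 RPKM in the mutant, and the flower gene SEP3 between 0.14 and 0.23 and between 0.24 and 0.34 RPKM. Both were higher in every mutant library, and their part in the results was not tested.

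Intron retention is the commonest form of alternative splicing in plants. A retained intron can carry a stop codon that ends translation early, or keep a transcript in the nucleus. Another kind, the exitron, lies within a coding exon and keeps the reading frame when it stays, so that both forms can be translated.

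The sequences show which kinds of intron these are. They were read from the RefSeq genome TAIR10.1 at introns matched to the table by gene and length, and the submitters' processing notes name TAIR10. The first set holds coding introns with some of the highest Col-0 means, each with a length that is a multiple of 3 and no stop in the frame of the gene. They come from AT4G21620, a glycine-rich protein gene (chr4:11491625-11491723, plus strand), AT1G75190, an uncharacterized gene (chr1:28219805-28219915, plus strand), LSU1, a gene of the response to low sulfur (chr3:18375579-18375635, minus strand), and ROC3, a cyclophilin gene (chr2:7201013-7201078, plus strand). Capitals mark the first and last bases, GT and AG, as in most introns.
AT4G21620: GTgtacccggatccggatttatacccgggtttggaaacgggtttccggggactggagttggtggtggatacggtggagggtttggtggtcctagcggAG
AT1G75190: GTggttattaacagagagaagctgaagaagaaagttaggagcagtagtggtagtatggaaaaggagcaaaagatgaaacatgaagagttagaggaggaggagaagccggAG
LSU1: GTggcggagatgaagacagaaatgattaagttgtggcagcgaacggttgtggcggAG
ROC3: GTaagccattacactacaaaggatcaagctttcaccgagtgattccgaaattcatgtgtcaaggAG

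The second set holds members in genes of signalling and the clock. JAZ9, which RefSeq calls TIFY7, encodes a repressor of jasmonate responses (intron 5, chr1:26656321-26656392, plus strand). ABI2 encodes a phosphatase that dampens abscisic acid signalling (intron 1, chr5:23087802-23087921, plus strand). ZTL encodes an F-box blue-light receptor of the circadian clock (intron 2, chr5:23244216-23244323, plus strand). LNK2, AT3G54500, encodes a clock coactivator (intron 5, chr3:20177556-20177620, minus strand). The introns of JAZ9 and ABI2 keep the frame without a stop, that of ZTL holds a stop in frame, and that of LNK2 holds a stop and has a length that is no multiple of 3.
JAZ9: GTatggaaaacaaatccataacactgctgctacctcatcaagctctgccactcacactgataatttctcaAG
ABI2: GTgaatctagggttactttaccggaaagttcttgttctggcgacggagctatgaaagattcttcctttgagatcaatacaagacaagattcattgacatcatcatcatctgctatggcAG
ZTL: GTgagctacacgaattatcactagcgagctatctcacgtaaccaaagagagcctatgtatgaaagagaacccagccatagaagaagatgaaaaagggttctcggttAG
LNK2: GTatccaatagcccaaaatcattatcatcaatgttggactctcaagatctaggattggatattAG

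The third set holds coding introns whose retention was higher in every mutant library than in any Col-0 library, for contrast with the first. They come from AT1G08165 (chr1:2561964-2562055, minus strand), AT5G60400 (chr5:24291578-24291671, minus strand), the nudix hydrolase gene NUDT9 (chr3:16969370-16969447, plus strand) and FLM, a MADS-box repressor of flowering that RefSeq calls MAF1 (intron 7, chr1:28959372-28959577, plus strand). Their GC content ran from 29.3% to 36.2%, and that of the first set from 42.4% to 58.6%. Each of these 4 holds a stop in frame. Both sets were picked from larger groups of members, so these differences describe only the introns shown.
AT1G08165: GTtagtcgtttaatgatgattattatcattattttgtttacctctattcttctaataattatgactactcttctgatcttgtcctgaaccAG
AT5G60400: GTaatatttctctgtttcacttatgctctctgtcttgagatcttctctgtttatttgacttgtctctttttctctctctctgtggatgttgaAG
NUDT9: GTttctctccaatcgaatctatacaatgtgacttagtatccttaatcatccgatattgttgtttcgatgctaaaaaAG
FLM: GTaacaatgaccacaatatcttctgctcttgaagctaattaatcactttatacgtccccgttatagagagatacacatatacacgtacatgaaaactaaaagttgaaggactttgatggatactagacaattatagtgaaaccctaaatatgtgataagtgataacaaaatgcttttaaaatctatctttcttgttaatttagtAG

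The last set holds introns bounded by a direct repeat, a stretch of bases at the start of the intron that recurs at its end. Capitals mark both copies, and a copy can run past the intron's ends into the exons, so the same spliced sequence results wherever within the repeat the ends are placed. The positions given span both copies. The introns come from the early nodulin-like gene ENODL1 (chr5:21870417-21870485, minus strand), where the copies overlap and all bases are in capitals, AT1G56423 (chr1:21130441-21130518, plus strand), the helicase gene NIH (chr1:2046386-2046499, plus strand), the F-box gene AT1G27540 (chr1:9567727-9567843, minus strand) and GRP7, a clock-regulated glycine-rich RNA-binding protein gene (chr2:9265660-9265721, minus strand). The repeats are 45, 24, 30, 27 and 11 bases long in that order.
ENODL1: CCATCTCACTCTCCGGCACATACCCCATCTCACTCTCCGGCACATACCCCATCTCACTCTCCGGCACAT
AT1G56423: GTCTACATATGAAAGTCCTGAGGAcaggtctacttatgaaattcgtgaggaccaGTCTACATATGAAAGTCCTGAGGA
NIH: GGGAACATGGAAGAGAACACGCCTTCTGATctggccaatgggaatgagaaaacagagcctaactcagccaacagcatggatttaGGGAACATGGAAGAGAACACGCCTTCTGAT
AT1G27540: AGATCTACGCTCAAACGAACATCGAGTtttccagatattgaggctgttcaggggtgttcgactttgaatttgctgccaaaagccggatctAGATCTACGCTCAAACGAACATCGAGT
GRP7: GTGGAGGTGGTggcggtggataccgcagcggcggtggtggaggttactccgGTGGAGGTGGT

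Most members were already known to the annotation as exon sequence. Of the 1730 members matched to RefSeq, 81.5% lay whole inside an exon of another annotated transcript of their gene, against 7.10% of all 90625 matched introns. The share inside a coding exon, the position of an exitron, was 32.0% against 1.17%. Read the other way, 1410 of the 6437 introns inside an exon of another transcript were members (21.9%), and 320 of the 84188 that lay in none (0.380%). Annotated transcripts come from sequenced RNA, so this overlap is a description of the same kind of evidence.

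Coding members kept the frame more often than coding introns as a whole. Among 961 members within the coding region, 50.9% had a length that was a multiple of 3, against 33.2% of all 82682 coding introns, and 52.4% held no stop in frame, against 11.1%. Both held for 352 members (36.6%, against 3.29%), of which 340 also lay inside an annotated coding exon. Such an exon is annotated as translated, so a lack of stops there largely follows from the annotation. The kept frame is therefore no trait apart from the position in a coding exon. Outside the coding region, 22.0% of members lay in a 5′ untranslated region (UTR), 10.8% in a 3′ UTR and 6.71% in noncoding transcripts, against 4.30%, 1.24% and 0.621% of all introns. These shares were close to those of the introns at 10% to 20% in Col-0, at 18.3%, 10.4% and 5.46%, whereas a multiple of 3 without a stop was found in 4.19% of the coding introns there. Of all 3′ UTR introns with the depth, 16.5% were members, and of all coding introns 1.16%.

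The genes of the members had fewer introns. A member's gene had a median of 5 introns and the gene of any intron a median of 9. The only intron of its gene made up 11.7% of members and 2.16% of all introns. The median length was 99 bases in both sets, but 10.8% of members were shorter than 60 bases, against 1.36%, and the median GC content was 38.2% against 33.1%. A gene on the opposite strand overlapped 8.67% of members, 8.05% of the introns at 10% to 20% and 1.77% of all introns. Where such genes overlap and strand was not counted, reads of one can fall on the intron of the other, and the sources used here do not state strand.

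**Figure D1:**
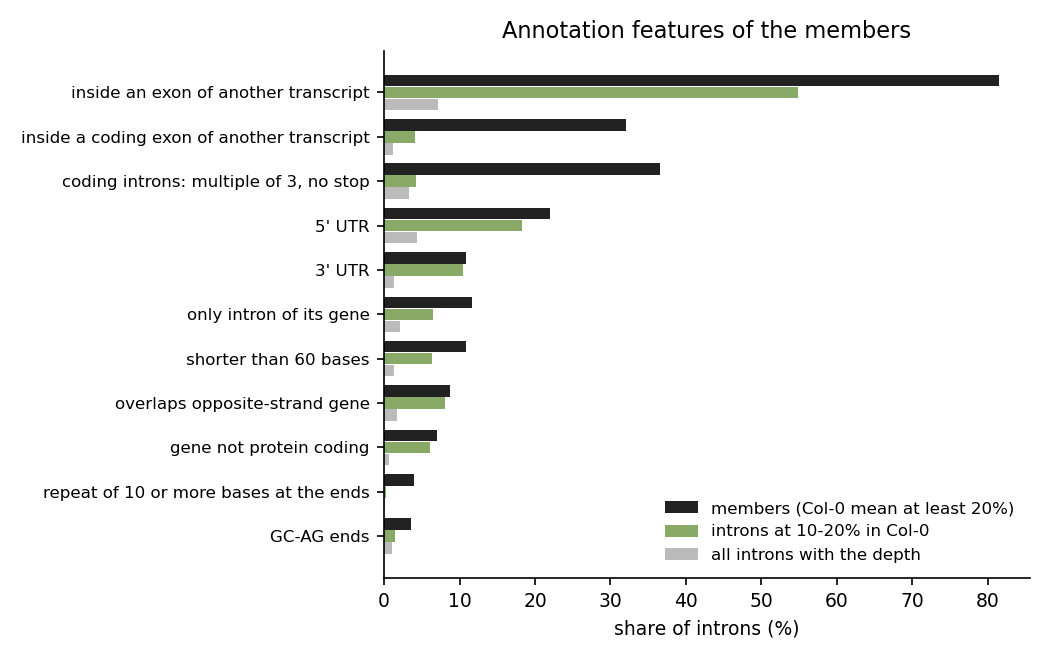
Share of introns (horizontal axis, %) with each annotation feature, for the members (black), the introns at 10% to 20% in Col-0 (green) and all introns with the depth (grey). The widest gap is that for introns inside an exon of another transcript, at 81.5% of members, 54.8% of the introns at 10% to 20% and 7.10% of all.

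Introns bounded by direct repeats were concentrated among the members. A repeat of at least 10 bases was found at the ends of 66 of the 1644 members whose ends are annotated (4.01%) and of 119 of all 88271 such introns (0.135%). With the introns matched by length alone, 69 of 122 were members. All 69 had a length that was a multiple of 3, as had 20 of the 53 that were not members, whose median Col-0 retention was 0.552%. Of the 69, 60 lay in coding sequence. By their first bases alone, 31 started with GT, 17 with GC and 21 with AT.

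Introns with AT-AC ends show the contrast most plainly. Many AT-AC introns are removed by the minor spliceosome and start with ATATCC. Of the 88 AT-AC introns with annotated ends, 20 were members, and 19 of these 20 had the repeat while 0 started with ATATCC. Among the other 68, 60 started with ATATCC and 7 had the repeat. ATATCC was searched at the first base on the strand of the gene, and it or GTATCC started 0.440% of all 88271 introns.

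The Col-0 means of the 69 repeat introns ran from 20.09% to 54.5% and their mutant means from 21.2% to 53.2%. Those of 5 genes are given here, chosen after their values were seen. UBQ10, the polyubiquitin gene, lists an intron of 228 bases (intron 3, chr4:2719063-2719290, plus strand), at 35.9%, 35.8% and 35.6% in Col-0 and 35.5%, 35.3% and 35.7% in the mutant. UBQ4, a second polyubiquitin gene, lists one of the same length, at 36.9% ± 0.837 and 37.8% ± 0.688 (SD, n = 3). HYL1, a double-stranded RNA-binding protein of microRNA processing, had one of 420 bases at 37.1% ± 2.88 and 35.5% ± 1.58. The immune receptor gene SNC1 was at 30.7% ± 0.657 and 30.7% ± 0.917, and the DNA methyltransferase gene CMT2 at 34.4% ± 0.931 and 35.9% ± 1.32. Their means differed by under 2 points between the genotypes. In UBQ10 the junction had 56 to 174 reads per Col-0 library beside an intron depth of 10790 to 28880, and in the mutant 38 to 99 reads beside 9566 to 17850.

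The members gathered around the depth of their exons. Their Col-0 means ran from 20% to 86.9%, with a median of 32.8% and quartiles of 27.1% and 37.5%. The number of introns per 1-point bin fell from 90 at 19% to 20% to 47 at 26% to 27%, and rose again to 127 at 34% to 35%. Only 43 members reached 50%. Reads covered every base of the intron in all 6 libraries for 95.5% of members and 28.3% of all introns. In every Col-0 library 1576 of the 1790 were at 20% or more.

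**Figure D2:**
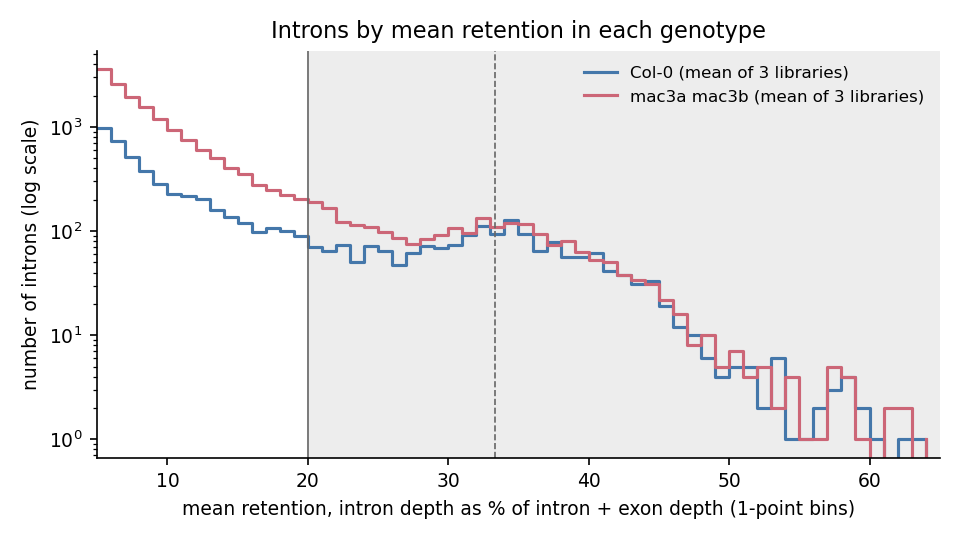
Number of introns (vertical axis, log scale) in 1-point bins of mean retention (horizontal axis, %), for the mean of 3 Col-0 libraries (blue) and of 3 mutant libraries (red). The shaded range from 20% holds the members by the Col-0 line, and the dashed line at 33.33% marks equal depth of intron and exons, where both lines have a second rise.

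The threshold cut through a continuous range. The members just above it were intron 6 of the kinase gene SNRK2-8, intron 5 of AT4G23910 and intron 1 of AT5G56530, each at 20% in Col-0 to the nearest whole percent, with an SD of 2.94, 1.79 and 4.53 points (n = 3). Just below it stood intron 10 of AT5G12440, intron 5 of NUDX13 and intron 1 of AT3G26135, at 19.99%, 19.99% and 19.98%, with an SD of 1.20, 1.61 and 1.78 points. The number of introns at 20% or more was 1951, 1839 and 1690 in the Col-0 libraries and 2440, 2465 and 2871 in the mutant libraries.

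Retention of the members was close in both genotypes. The median of all members was 33.4%, 32.9% and 32.3% in the Col-0 libraries 1 to 3 and 33.4%, 33.6% and 34.0% in the mutant libraries. The first library of each genotype thus lay level and the groups met. As means of library medians these were 32.9% ± 0.583 and 33.7% ± 0.286 (SD, n = 3). Over all introns the same medians were 0.214% ± 0.0512 and 1.63% ± 0.105, and over the 1464 introns at 10% to 20% in Col-0 they were 13.7% ± 1.47 and 17.8% ± 0.600. The median change per intron was 0.567 percentage points over the members, 3.67 over the introns at 10% to 20% and 1.24 over all. Without Col-0 replicate 1 the members' value was 0.891 points, and without Col-0 replicate 3 it was 0.247 points. On the log2 scale of intron over exon depth it was 0.04, 0.41 and 1.87. The mutant mean was higher for 62.7% of members and 95.7% of all introns, and 59.2% of members changed by under 2 points in either direction. In bulk leaf RNA, fewer cells of a type and less RNA per cell cannot be told apart.

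**Figure D3:**
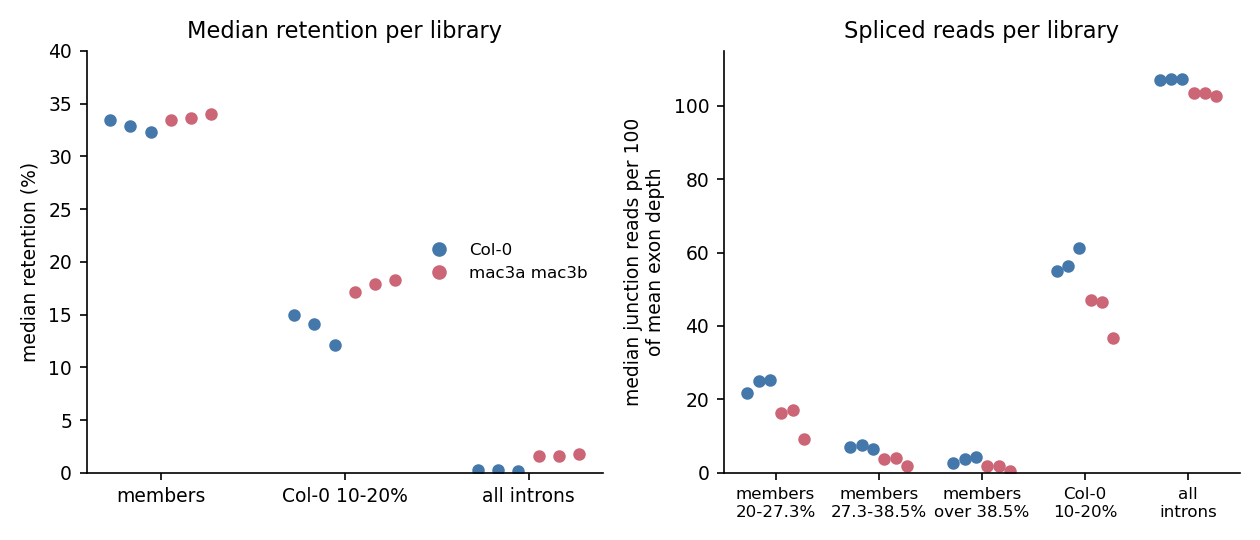
Medians per library, with each point 1 library, Col-0 in blue and mac3a mac3b in red. The left panel gives median retention (%), where members lie between 32.3% and 34.0% in all 6 libraries. The right panel gives median reads across the spliced junction per 100 of mean exon depth, for introns with a listed junction only. These were lower in every mutant library than in any Col-0 library in the 5 sets shown.

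Few members passed the test of the whole table. With limma on log2 of intron over exon depth, 7 of 1790 members had an adjusted p under 0.05 (Benjamini-Hochberg), all higher in the mutant, where 64.7% of all 91164 introns were called higher. None was called lower by limma, against 0.0384% of all introns, and at an unadjusted p under 0.05 there were 10 higher and 0 lower. The adjusted threshold fell at an unadjusted limma p of 0.0324, so at 0.05 at least 64.7% of all introns passed in either direction. The count of members called by adjusted p was 4 without Col-0 replicate 2, and it was 3 when Col-0 replicate 3 or either of the mutant replicates 1 and 3 was left out. Of all introns those fits called from 52.9% to 56.7% higher. In every mutant library above every Col-0 library were 188 members (10.5%, against 67.2% of all introns), and below every one were 60 (3.35%, against 0.274%). The test gives each intron a spread drawn towards that of all introns. With a spread that follows an intron's mean log2 ratio of intron over exon depth, limma called 116 members higher and 26 lower. Of all introns that fit called 66.8% and 0.0702%. On the percentage scale limma called 81 members higher and 16 lower, against 36.2% and 0.0428% of all introns. In simulated data with the other introns shifted as observed, unchanged members were called about as often as the members were here, so the 7 calls are given as a description.

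**Figure D4:**
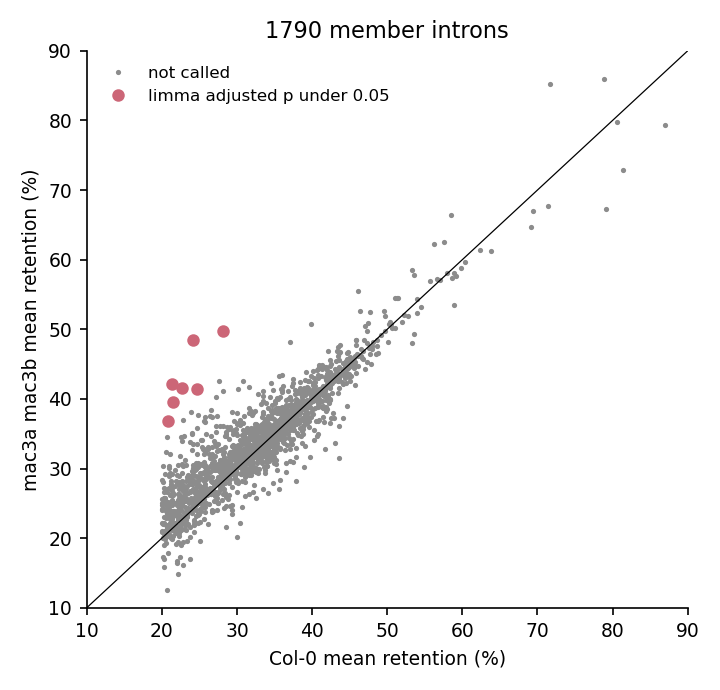
Mean retention of each member in Col-0 (horizontal axis, %) and in mac3a mac3b (vertical axis, %), with each point 1 of the 1790 introns and the line marking equal values. The 7 introns with a limma adjusted p under 0.05, in red, all lie above the line at Col-0 means between 20% and 30%.

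The change differed along the range of Col-0 retention. The 458 members whose depth was 50% to 75% of the mean exon depth (20% to 27.27% retention) changed by a median of 2.31 points, the 945 at 75% to 125% by 0.547 points, and the 387 above that by −0.146 points. These bands were cut on Col-0 values, so members low by chance there fall in the first band. Of the 7 called introns, 6 lay in the first band and 1 in the second. By position, the median change was 1.45 points for 381 introns in 5′ UTRs, 1.32 for 116 in noncoding transcripts, 0.682 for 186 in 3′ UTRs, 0.455 for the 609 other coding introns and 0.128 for the 352 coding introns that keep the frame without a stop. Among the 69 repeat introns it was −0.289 points, and 0 of them changed by 5 points or more. Introns inside an exon of another transcript and those in none changed by 0.598 and 0.499 points.

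Reads across the spliced junction did not choose the members, but they are given here per exon depth, which is part of the rule. The junction values are therefore not independent of it, and their comparison is a description. The deposited table of alternative donors and acceptors lists the junction of 493 members and of 45630 introns in all. Of the listed introns, 0 were without a junction read in every library, so introns without spliced reads may be missing. Listed were 204 of the 458 members at 20% to 27.27%, 221 of the 945 at 27.27% to 38.46% and 68 of the 387 above. The medians below describe the listed introns only. Over all introns with a listed junction the median was 107.1, 107.3 and 107.3 junction reads per 100 of mean exon depth in the Col-0 libraries and 103.5, 103.5 and 102.6 in the mutant libraries. Members had a median of 10.3, 11.1 and 9.65 in Col-0 and 6.16, 7.27 and 3.246 in the mutant, so every mutant library was below every Col-0 library. In the band of 20% to 27.27% the values were 21.8, 25.01 and 25.2 against 16.2, 17.1 and 9.20. Above 38.46% they were 2.62, 3.73 and 4.19 against 1.72, 1.74 and 0.397.

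By single introns, junction reads per exon depth were lower in all mutant libraries for 114 of the 493 members (23.1%), near the 25.7% of all introns, and higher in all for 9 (1.83%, against 1.41%). Of these members 242 had under 10 reads per 100 of depth in Col-0 and 57 had at least 50. Mutant replicate 3, the lowest in each set, moved with the size of this difference, and without it the next mutant values still lay below Col-0 as listed.

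The largest rises among the called introns were those of 6, each the first of its gene from the 5′ end or its only one, and 0 of them inside an annotated coding exon. In AT3G54910, a gene of the RNI-like superfamily, the first intron from the 5′ end lies in the 5′ UTR and stood at 29.3%, 18.6% and 24.5% in Col-0 and 51.7%, 39.9% and 54.0% in the mutant. Its log2 change was 1.58 ± 0.440 (SE; limma adjusted p = 0.0145). The junction had 14, 22 and 13 reads in Col-0 and 6, 25 and 1 in the mutant, so mutant replicate 2 lay above every Col-0 library. The only intron of AT1G08165, shown above, was at 26.9%, 30.9% and 26.6% against 46.4%, 50.8% and 51.9% (1.32 ± 0.378, 0.0159). In retention, no library of one genotype overlapped the other in either intron.

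The only intron of AT5G60400 was at 18.6%, 20.7% and 24.8% in Col-0 and 41.7%, 38.6% and 45.9% in the mutant (1.42 ± 0.391, limma adjusted p = 0.0137). Its junction had 557, 496 and 502 reads in Col-0 and 287, 366 and 231 in the mutant, while the gene was at 9.72 ± 1.38 and 9.82 ± 1.23 RPKM (SD, n = 3). In the 5′ UTR of AT3G17100, a gene for a DNA-binding transcription factor, retention was 21.3%, 22.2% and 24.5% against 38.2%, 35.1% and 51.3% (1.26 ± 0.422, 0.0288). Junction reads there fell from 571, 649 and 520 to 311, 477 and 68, the last in mutant replicate 3, which also had the highest retention.

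The first intron of NUDT9 was at 28.2%, 18.2% and 18.0% in Col-0 and 45.9%, 33.2% and 39.6% in the mutant (1.27 ± 0.439, limma adjusted p = 0.0331). That in the 3′ UTR of AT3G10760, a homeodomain-like gene, was at 28.0%, 25.9% and 19.97% against 39.4%, 39.1% and 45.8% (1.12 ± 0.40, 0.0364), and passed no longer with the replicate block (0.0644). AT3G17100, NUDT9 and AT3G10760 each lost the call in several fits without 1 library, with adjusted p from 0.00125 to 0.0832, from 0.00200 to 0.101 and from 0.000978 to 0.0992 over all alternatives. AT3G54910, AT1G08165 and AT5G60400 kept it in each fit that held them, up to 0.0497, 0.0423 and 0.0385. The seventh call, outside the rule for naming, was intron 8 of the transporter gene UMAMIT40, at 20.9% and 36.9%. Levels of the 6 genes did not pass the test between genotypes (limma adjusted p from 0.538 to 0.995).

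**Figure D5:**
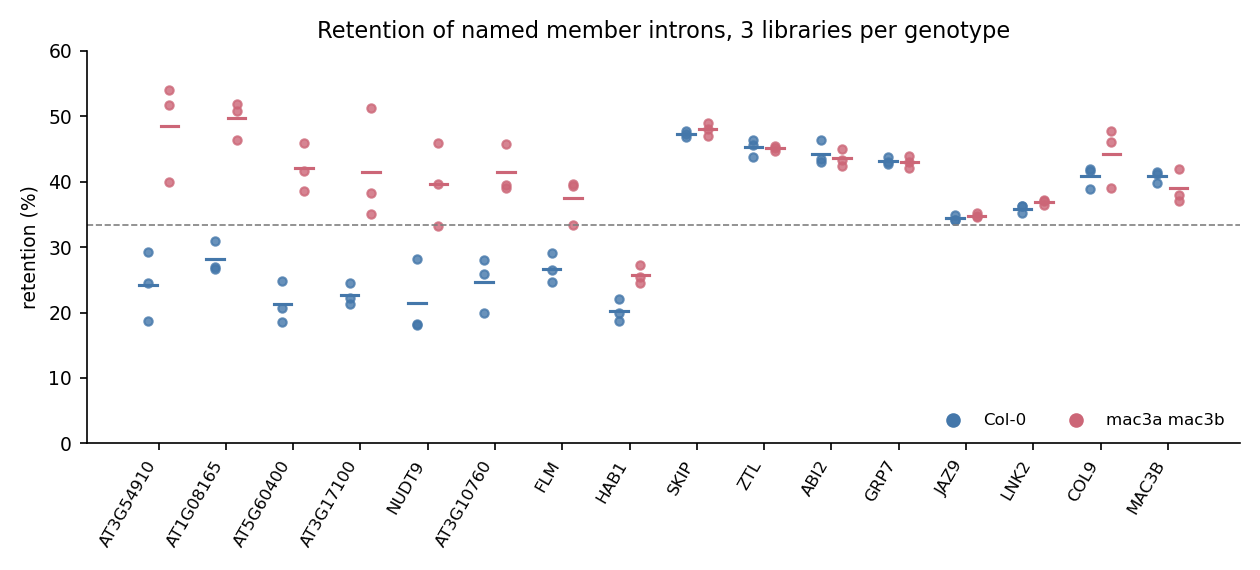
Retention (vertical axis, %) of 16 named member introns, with each point 1 library, bars at the mean of 3 libraries, Col-0 in blue and mac3a mac3b in red. The first 6 introns do not overlap between genotypes, whereas those of SKIP, ZTL, ABI2, GRP7 and JAZ9 stay within a few points, and the dashed line marks 33.33%.

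Of the 8 coding members with the highest Col-0 means that overlap no other gene, 4 differed by under 1 point between the genotypes and the other 4 by more. Intron 1 of AT4G21620 was at 61.7%, 62.2% and 63.3% in Col-0 and 59.96%, 62.2% and 62.1% in the mutant, and that of AT1G75190 at 62.0%, 59.1% and 58.5% against 59.6%, 58.0% and 59.0%. For LSU1 the values were 59.0%, 59.0% and 55.8% against 60.7%, 54.8% and 58.6%, and for ROC3 56.0%, 57.6% and 57.5% against 56.5%, 56.9% and 57.7%. These 4 lie inside coding exons and keep the frame. The other 4 lie in no annotated coding exon. Intron 2 of AT3G58520, a ubiquitin hydrolase gene, was at 58.9% ± 4.11 and 53.5% ± 6.88, both introns of AT5G22608 at 58.5% ± 1.79 and 66.4% ± 5.68 and at 57.6% ± 0.995 and 62.6% ± 3.87, and intron 2 of AT2G05185 at 56.2% ± 1.05 and 62.3% ± 2.67 (SD, n = 3). In the introns of AT5G22608 and AT2G05185 the genotypes did not overlap, and the mutant libraries were the higher. None of the 8 passed the test over all introns (limma adjusted p from 0.288 to 0.996).

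Members were found in each of the 7 gene lists examined, and 0 of these list members were called in either direction by limma. Of all members 0.391% were called higher, and of all introns 64.7%. Calls among the other introns of the lists are not given here. There were 2 members among 146 tested introns of SR splicing factors, 2 of 64 of other splicing regulators, 2 of 80 of the MOS4-associated complex, 3 of 101 of the clock, 5 of 112 of flowering genes, 1 of 36 of JAZ repressors and 3 of 22 of the phosphatases of abscisic acid signalling. Over all introns with the depth, 1.96% were members. Of the 18 list members, 0 had an unadjusted p under 0.05. The fit with a spread that follows the mean log2 ratio called 2 higher, those of FLM and HAB1, and 0 lower.

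In the genes of splicing factors the means differed by under 2 points between the genotypes. SKIP, a subunit of the complex that also acts in the clock, had a frame-keeping intron of 306 bases at 47.8%, 46.8% and 47.3% in Col-0 and 49.0%, 47.0% and 48.1% in the mutant. MAC3B itself, one of the mutated genes, had its last intron, in the 3′ UTR, at 41.1%, 39.8% and 41.5% against 38.0%, 41.9% and 37.0%, while the level of its RNA was lower. GRP7, whose repeat intron is shown above, was at 42.8%, 43.1% and 43.7% against 44.0%, 43.0% and 42.1%. Its junction had 44, 52 and 57 reads in Col-0 beside intron depths of 165300, 216500 and 222500. The related GRP8, which RefSeq calls CCR1, was at 34.2% ± 0.435 and 33.5% ± 2.01, and the SR genes SCL33 and SR34b at 42.4% ± 0.520 and 42.2% ± 0.853 and at 24.6% ± 0.688 and 26.3% ± 2.94 (SD, n = 3).

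In the clock genes and ABI2 they also differed by under 2 points. ZTL was at 46.4%, 43.8% and 45.7% in Col-0 and 45.1%, 44.7% and 45.5% in the mutant, and ABI2 at 42.9%, 43.4% and 46.4% against 43.4%, 45.0% and 42.3%. The groups overlapped in both. LNK2 was at 35.2%, 36.2% and 36.3% against 37.1%, 36.5% and 37.1%, with no overlap but a log2 change of 0.06 ± 0.367 (SE; limma adjusted p = 0.889). Its partner LNK1 had a 3′ UTR intron at 31.1% ± 3.68 and 32.9% ± 4.19 (SD, n = 3).

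For JAZ9 the level of the gene can be set beside the retention of its intron. Its intron was at 34.1%, 34.2% and 34.8% in Col-0 and 34.5%, 35.2% and 34.7% in the mutant. The gene's levels were 66.2, 57.2 and 27.6 RPKM in Col-0 and 208, 287 and 227 RPKM in mutant libraries, a log2 change of 2.31 (limma adjusted p = 0.109, and 0.0255 with the replicate number as a block). The intron depth was also higher in the mutant, at 5106, 8466 and 6017 against 2156, 1998 and 983.5 in Col-0. The intron's junction had 32, 34 and 12 reads in Col-0 and 42, 36 and 19 in the mutant. Exon depths were 4168, 3844 and 1840 in Col-0 and 9679, 15580 and 11330 in the mutant. Per exon depth, junction reads were thus lower in every mutant library. HAB1 and HAB2, phosphatase genes like ABI2, were near the threshold. HAB1 was at 19.96%, 22.0% and 18.7% against 25.5%, 27.27% and 24.5%, with no overlap (limma adjusted p = 0.304, and from 0.0233 to 0.454 over all alternatives), and HAB2 at 21.3% ± 5.52 and 23.6% ± 4.62 (SD, n = 3).

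Among flowering genes, intron 7 of FLM, shown above, was the member that moved most. It stood at 29.1%, 24.6% and 26.5% in Col-0 and 39.7%, 39.3% and 33.4% in the mutant, with no overlap and a log2 change of 0.71 ± 0.382 (SE; limma adjusted p = 0.127, and from 0.00291 to 0.250 over all alternatives). FY, FCA and FPA encode RNA-processing factors that lower the repressor FLC. FY had an intron in the 5′ UTR at 38.4% ± 1.66 and 38.9% ± 1.23, FCA one at 36.4% ± 1.46 and 35.6% ± 3.26, and FPA a pair, one of them coding and frame-keeping, at 29.0% ± 2.27 and 31.2% ± 3.12 and at 22.7% ± 3.84 and 24.8% ± 1.52 (SD, n = 3).

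Organelle genes were represented by 2 of 10 tested chloroplast introns and 3 of 3 mitochondrial ones. Their Col-0 means, the highest of all members among them, ran from 45.1% to 86.9% and their mutant means from 42.6% to 86.0%. None was called by limma (adjusted p from 0.0578 to 0.748). The lowest of these p belonged to the mitochondrial ATMG00090, at 79.7%, 67.6% and 67.6% in Col-0 and 90.1%, 82.5% and 83.1% in the mutant, and with the replicate block it passed (limma adjusted p = 0.0489). The remaining mitochondrial introns had lower means in the mutant. ATMG00160 was at 80.3%, 78.6% and 78.6% in Col-0 and 72.8%, 67.2% and 61.9% in the mutant, without overlap (limma adjusted p = 0.0754). ATMG00060 was at 86.9% ± 3.52 and 79.3% ± 4.22 (SD, n = 3), with overlap.

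Several genes held many members. A single member was found in 1367 genes, a pair in 138 and 10 in AT1G79245, of 12 introns tested. All 9 tested introns of AT4G05631 were members, at Col-0 means of 32.7% to 44.2% and mutant means of 30.8% to 37.3%, and all 7 of AT1G34315, at 23.3% to 50.1% and 22.6% to 48.2%.

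In the same genes the other introns were called about as often as introns of the whole table. The 8119 other tested introns of 1274 of the members' genes had a median retention of 0.265%, 0.1997% and 0.143% in the Col-0 libraries and 1.63%, 1.62% and 1.94% in the mutant libraries. Of these, 63.8% were called higher by limma, near the 64.7% of all introns, and their median log2 change was 1.87.

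The expression of the members' genes was a readout the rule did not use. Of the 1542 genes, 1497 had a mean of at least 1 RPKM, and 2 of these passed limma's test on log2(RPKM + 1), which is 0.134% against 0.105% of all 17163 genes tested. Both were lower, and of all genes 0.0524% were called in each direction. COL9, a CONSTANS-like gene linked to flowering time, was at 38.45, 36.0 and 34.9 RPKM in Col-0 and 3.89, 3.51 and 6.85 in the mutant (log2 change −2.75, limma adjusted p = 0.0335), and MAC3B at 35.4, 36.4 and 49.0 against 8.98, 5.64 and 7.60 (−2.30, 0.0377). The last intron of COL9, in the 3′ UTR, was at 41.7%, 41.9% and 38.9% against 47.7%, 39.1% and 46.1%, with overlap. Without any 1 of the 6 libraries neither gene passed (limma adjusted p up to 0.198).

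Libraries with the same number deviated together in expression, so the fit with the replicate number as a block is given beside the main one. It called 34 of the members' genes higher and 36 lower, 4.68% against 4.52% of all genes (2.7% higher and 1.82% lower). With RPKM rescaled to the same total as well, the block gave 28 higher and 67 lower, where 6.74% of all 17163 genes were called. The rescaling shifted the median of all genes from 0.01 to −0.07 on the log2 scale. Without Col-0 replicate 1 or mutant replicate 1 the blocked fit called 0 by limma. LNK2 was among the genes called with the block (1.02 on the log2 scale, limma adjusted p = 0.0254, at 26.2, 31.7 and 27.8 RPKM in Col-0 and 56.1, 65.3 and 55.9 in the mutant).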

How the data were processed

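Polyadenylated RNA of 6 leaf libraries was compared, 3 of Col-0 and 3 of mac3a mac3b, grouped by the sample titles. Trimmomatic, Bowtie2 and DESeq2 are named without versions or roles, and TAIR10 as the build, per the submitters' processing notes. The intron table, made with RackJ, holds the authors' read depth of introns and exons, a coverage signal not scaled to library size, and the fraction of each intron covered, per the file headers. Junction and unique reads are deposited counts. The deposited gene values carry no unit. Times gene length, they followed the deposited unique reads in proportion, to within 1% for at least 97.3% of compared genes per library, and they were read as the authors' RPKM.

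Retention was 100 × intron/(intron + exon) depth. For introns, limma 3.58.1 (eBayes, R 4.3.3) was run on log2((intron + 0.5)/(exon + 0.5)) where both depths summed to at least 20 in every library. Genes were tested with limma with a variance trend on log2(RPKM + 1) at a mean of at least 1 RPKM, a scale that understates changes of weakly expressed genes. P-values are two-sided and adjusted by Benjamini-Hochberg over all introns or genes, with a threshold of 0.05. The tests were tried on simulated data. Depth values are no molecule counts, and their number limits the precision.

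Introns were matched to RefSeq TAIR10.1 transcripts by gene and length (99.2% of 105206 introns). Stops were read in the frame of the annotated transcript. The members, gene lists and tests were chosen with earlier results of these data known. Named introns are the 8 coding members with the highest Col-0 mean that overlap no other gene, up to 6 called members with the largest rise and fall without overlap of the genotypes, list members (up to 20), the 3 on each side of the threshold, and called genes. Introns with repeats, organelle introns and genes with many members were named after their values were seen.

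Same-numbered libraries correlated across genes, after subtraction of genotype means, with r of 0.62, 0.78 and 0.43, which is the only source of the pairing. Alternatives were other pseudocounts, depth minimums, scales, variance models and thresholds, memberships chosen on other libraries, the replicate block and leaving out each library. Each column of library values belonged to a named sample.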

Additional observations from a re-analysis of the deposited data

How the results depend on the processing

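The count of members called higher by limma was 7 and kept within 1.5 times with the replicate block (6) and with depth minimums of 10, 100 or none. It was 3 with a pseudocount of 0.05, 21 with 5, 81 on the percentage scale and 116 with a variance trend, and ran from 3 to 7 without 1 library. Of all introns 55.2%, 58.3%, 36.2% and 66.8% were called higher in these settings, and from 52.9% to 59.8% without 1 library. With the block the share of all introns was 64.1%, and with depth minimums of 10, 100 or none it was 62.3%, 72.1% and 57.6%. All 7 calls were also made with a pseudocount of 5, on the percentage scale and with the variance trend. The count called lower was 0, and became 2 with a pseudocount of 5, 16 on the percentage scale and 26 with a variance trend, and stayed 0 without 1 library. Of all introns 0.137%, 0.0428% and 0.0702% were called lower in the first 3 of these settings. The numbers of the libraries were not taken as pairs for introns, where same-numbered deviations correlated with r of 0.06, 0.12 and 0.05. The cause of these differences was not tested, beyond the spread each fit assumes for an intron.

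The median change of 0.567 points was 1.82 where the mutant mean chose the members (2440 introns) and −0.786 for the 43 members at 50% or more, and ran from 0.247 to 0.891 without 1 library. With members chosen on 1 Col-0 library, the median change of the mutant against the other Col-0 libraries was 1.17, 0.775 and 0.335 points (1951, 1839 and 1690 introns). Other thresholds, depths, 1 intron per gene and introns that overlap no other gene moved it by less than the spread of library medians (0.650).

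Of the members' genes, 0 were called higher and 2 lower by limma. The replicate block gave 34 and 36, and with rescaled RPKM, an alternative added after seeing the data, 28 and 67. Of all genes the blocked fit called 4.52%, and 6.74% with rescaled RPKM. No filter on low values gave 0 lower, as did leaving out any 1 library. Leaving out 1 library within the blocked fit, also added after seeing the data, gave 0, 5 and 17 higher and 0, 17 and 18 lower for Col-0 replicates 1 to 3, and 0, 6 and 15 higher and 0, 18 and 17 lower for mutant replicates 1 to 3. Of all genes these fits called 0.00583%, 1.41% and 2.38% without Col-0 replicates 1 to 3. Without mutant replicates 1 to 3 they called 0%, 1.42% and 2.22%.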
